A study of Mus musculus with 16 samples.

Results

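The 10 genes described here encode mouse guanylate binding proteins and immunity-related GTPases, 2 families of GTP-hydrolysing enzymes whose transcription is switched on by interferon-gamma. They are Gbp2, Gbp3, Gbp5, Gbp6, Gbp7, Irgm1, Irgm2, Igtp, Iigp1 and Tgtp2, taken by their symbols from the 55416 genes listed for each liver. All 10 were matched, and all 10 were among the 14770 genes with enough counts to be tested. The livers came from 16 wild-type C57BL/6J mice in 4 groups of 4. Every mouse was injected through the tail vein at 8 weeks of age with the same number of genome copies of an adenovirus, either a control virus (Ad-CTRL) or a virus overexpressing FAT10 (Ad-FAT10). After 4 days the mice were gavaged with the vehicle CMC or with 1 mpk of pemafibrate (Pema), an agonist of the nuclear receptor PPARα. Gavages were given 18 h and 5 h before the liver was taken, and all mice were fasted for the last 5 h. Each group is named below by its virus and then its gavage. There was no group without virus, and the promoter that drives FAT10 in the virus and the species of its sequence are not stated in the labels. The comparisons ask how the virus and the drug, alone and together, bear on the levels of these GTPase genes.

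Interferon-gamma binds a receptor made of IFNGR1 and IFNGR2, and the kinases JAK1 and JAK2 then pass the signal on. Promoters of target genes hold gamma-activated sites (GAS) and interferon-stimulated response elements (ISRE). IRF1 and related factors bind the latter, through which type I interferon also acts. Guanylate binding proteins gather on vacuoles and bacteria in the cytosol and promote inflammasome activation. Among the immunity-related GTPases, the regulators Irgm1, Irgm2 and Igtp (also called Irgm3) sit on host membranes and keep the effectors inactive, whereas the effectors, such as Iigp1 and Tgtp2, load onto pathogen vacuoles and disrupt them. FAT10 itself, the ubiquitin-like product of Ubd, is another protein known to be induced by interferon-gamma.

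Library totals ran from 18663498 to 28898229 counts, and levels are given as CPM, the counts of a gene scaled to a common library total, after scaling by the trimmed mean of M values (TMM). Each mean is followed by its standard deviation (SD) over 4 livers, and individual values are listed in the order of the replicate numbers. The TMM factors lay between 0.831 and 0.929 in the Ad-CTRL libraries and between 1.06 and 1.19 in the Ad-FAT10 libraries, so scaling moved with the virus. Genes encoded in mitochondrial DNA took 5.46% to 8.76% of the counts of Ad-CTRL livers and 3.15% to 5.96% of those of Ad-FAT10 livers. These are whole livers, so more cells of a kind and more RNA per cell cannot be told apart.

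The members lie in clusters. Gbp2, Gbp3, Gbp5 and Gbp7 are on chromosome 3, Gbp6 is on chromosome 5, and Irgm1, Irgm2, Igtp and Tgtp2 are on chromosome 11. For 8 of the 10 members (Gbp6 and Iigp1 are not among them), RefSeq promoter windows of the mouse build GRCm38.p6 were searched over the 250 bases before the annotated start, on both strands, for the GAS letters TTCNNNGAA and for the ISRE letters, GAAA, 2 bases of any kind and GAAA again. The table gives 2 start sites for Gbp3 and 1 for each of the other 7 genes. All 8 genes held an ISRE match in a window and 5 of them also a GAS match (Gbp5, Gbp7, Irgm2, Igtp and Tgtp2). The ISRE matches of Gbp3 were at its first start site, and the window of its second held neither motif. Of 32851 windows of the same length in the table, 2.98% held the ISRE letters, 7.02% the GAS letters and 0.332% both. The 5 windows printed here cover the last 120 bases before the start. They include the members with the 2 largest differences between the viruses (Tgtp2 and Gbp2) and the smallest (Irgm2). The others are Gbp7, with a different arrangement of matches, and Igtp, whose window resembles that of Irgm2. Capitals mark the matches.
Gbp2 chr3:142620543-142620662 plus strand: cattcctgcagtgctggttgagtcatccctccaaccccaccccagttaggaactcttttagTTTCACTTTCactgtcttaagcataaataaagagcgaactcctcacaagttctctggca
Gbp7 chr3:142530216-142530335 plus strand: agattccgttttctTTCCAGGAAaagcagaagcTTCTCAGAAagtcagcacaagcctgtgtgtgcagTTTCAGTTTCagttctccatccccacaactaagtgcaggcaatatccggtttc
Igtp chr11:58199436-58199555 plus strand: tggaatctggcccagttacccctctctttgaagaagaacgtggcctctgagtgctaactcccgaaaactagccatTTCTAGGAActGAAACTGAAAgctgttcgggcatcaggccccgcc
Irgm2 chr11:58214857-58214976 plus strand: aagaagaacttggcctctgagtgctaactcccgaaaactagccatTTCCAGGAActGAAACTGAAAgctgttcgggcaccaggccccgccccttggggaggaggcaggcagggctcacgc
Tgtp2 chr11:49064213-49064332 minus strand: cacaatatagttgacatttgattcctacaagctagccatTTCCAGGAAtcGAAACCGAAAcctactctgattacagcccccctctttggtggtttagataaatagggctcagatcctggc

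In Gbp2 the single match, TTTCACTTTC, is an ISRE read on the opposite strand, starting 59 bases before the start site. Gbp7 held 2 GAS matches, at 106 and 87 bases, before an ISRE match at 53. Igtp, Irgm2 and Tgtp2 shared another layout, in which a GAS match is followed after 2 bases by an ISRE match, with the GAS beginning 45, 75 and 81 bases before the start. A search for this joined form (the GAS letters, 2 bases of any kind, then the ISRE letters on the same strand) was added after the windows had been seen, and its letters include those of both motifs. It was found in 5 of the 32851 windows, those of Igtp, Irgm2, Tgtp2, Tgtp1 and Gm12185, all on chromosome 11. The Igtp and Irgm2 windows were identical at 194 of 215 aligned bases (90.2%), against 56.4% to 67.2% for Irgm2 with the other members shown or searched. These letters describe the windows, and no binding was measured.

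Per length, 4 immunity-related GTPases were the most abundant members in Ad-CTRL CMC livers. CPM divided by the exon length in kilobases, from GENCODE M21, put Iigp1 first at 265 ± 66.2 CPM per kb, followed by Igtp at 153 ± 21.6, Irgm2 at 87.5 ± 8.06 and Irgm1 at 47.6 ± 9.87. The guanylate binding proteins followed, with Gbp2 at 29.5 ± 6.07, Gbp3 at 18.5 ± 4.31 and Gbp7 at 12.0 ± 1.93 CPM per kb. Tgtp2 (6.89 ± 1.33), Gbp6 (5.59 ± 1.88) and Gbp5 (2.77 ± 0.647) were the lowest as counted (all SD, n = 4). Tgtp2 and Gbp6 have close copies, Tgtp1 and Gbp10, at means of 124 and 68.4 CPM in these livers. Reads shared by copies cannot be assigned with certainty, so the places of Tgtp2 and Gbp6 are uncertain in every group. Among neighbours in this order, Irgm1 overlapped Gbp2 and Tgtp2 overlapped Gbp6 over the 4 livers, and no other neighbours did. In Ad-FAT10 CMC livers Gbp2 had moved to the third place (122 ± 37.7 CPM per kb), where it overlapped Irgm2 (113 ± 9.41), and Tgtp2 (29.3 ± 10.7) stood beside Gbp7 (28.9 ± 7.22), with overlapping values. In Ad-FAT10 Pema livers Iigp1 (560.0 CPM per kb) and Igtp (462 CPM per kb) overlapped at the top of the order, and Gbp5 (6.51 CPM per kb) was again the lowest.

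Ubd, the gene carried by Ad-FAT10, stood at 15.2, 8.64, 12.0 and 9.00 CPM in Ad-CTRL CMC livers and at 110.5, 167, 339 and 330.2 CPM in Ad-FAT10 CMC livers. In the Pema groups its values were 21.6, 47.8, 26.5 and 14.2 CPM with Ad-CTRL and 546, 442, 391 and 459.6 CPM with Ad-FAT10. Every Ad-FAT10 liver lay above every Ad-CTRL liver, as the labels have it, with log2 changes of 4.41 under CMC and 4.06 under Pema. Reads of the virus and of the mouse's own Ubd are not separated in these counts.

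All 10 GTPase genes were higher with Ad-FAT10 than with Ad-CTRL under CMC, and 9 of the 10 (all but Irgm2) under Pema. Under CMC the rise was 4.25-fold for Tgtp2, 4.14-fold for Gbp2 and 1.29-fold for Irgm2, with the other 7 members between. Over the 10 members the median log2 change was 1.24 under CMC and 0.99 under Pema, where the median of all 14770 genes was -0.01 and -0.02. Genes were called at an adjusted p under 0.05 in edgeR's quasi-likelihood test with Benjamini-Hochberg adjustment over all genes tested, and every adjusted p of a gene below is from this test. By that rule 22.5% of all genes were called higher and 20.2% lower under CMC, and 21.2% higher and 20.5% lower under Pema, while 0 members were called lower. The 4 livers of each virus did not overlap for 9 members under CMC and 6 under Pema, against 20.3% and 19% of all genes not overlapping and higher. The plot of levels shows each liver.

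**Figure D1:**
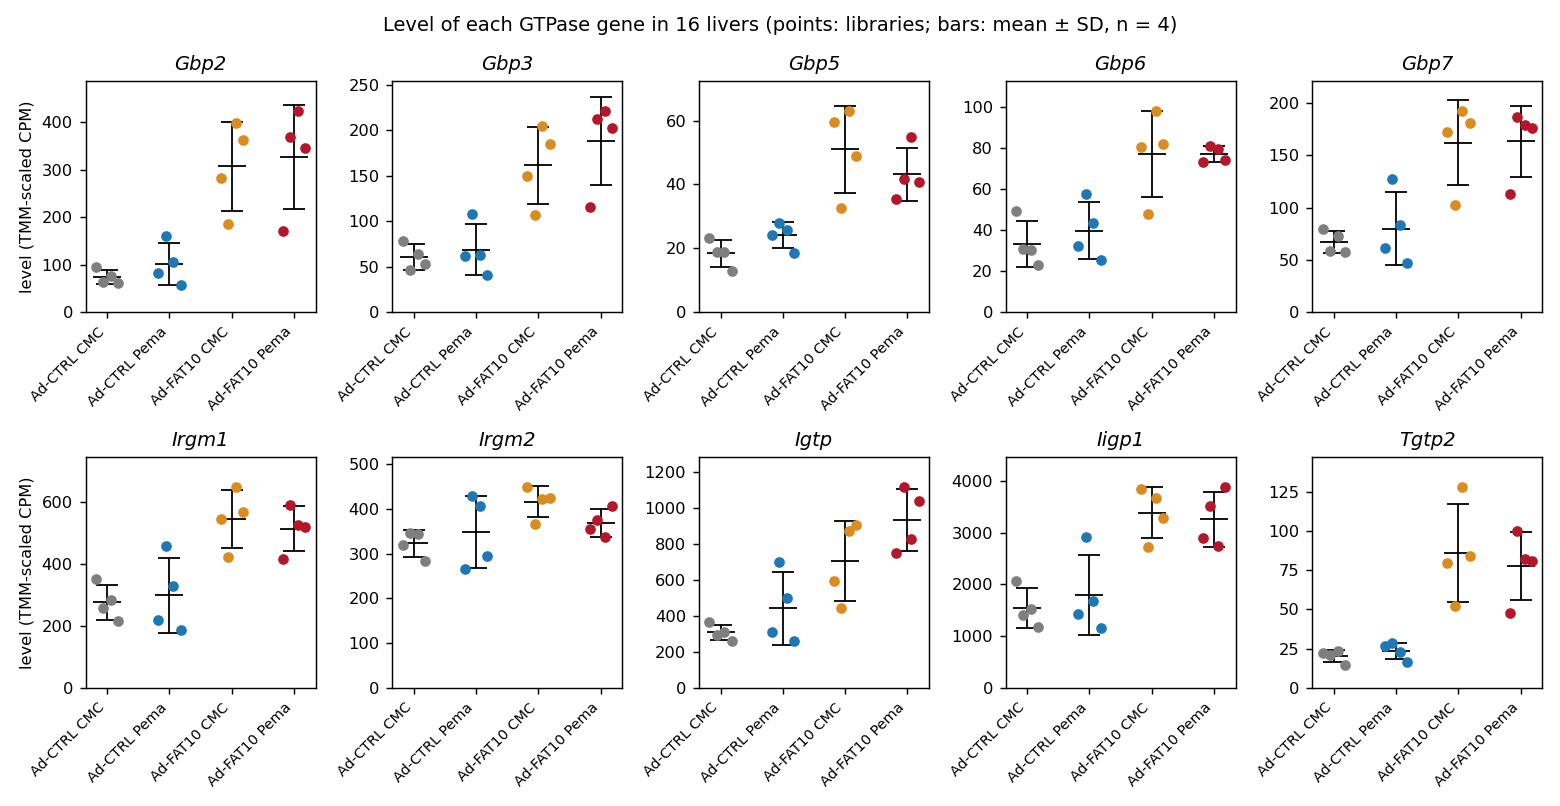
Level of each of the 10 GTPase genes in 16 livers, in TMM-scaled CPM on a linear axis from 0, 1 panel per gene. Points are single livers and bars are the mean ± SD of 4 livers. In 9 panels the Ad-FAT10 groups lie mostly above the Ad-CTRL groups, Irgm2 shows the smallest gap, and CMC and Pema overlap within each virus.

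Gbp2, a guanylate binding protein recruited to parasite vacuoles, was at 95, 63.1, 76.6 and 62.4 CPM in Ad-CTRL CMC livers and at 282, 185, 399 and 362 CPM in Ad-FAT10 CMC livers. The lowest Ad-FAT10 liver, replicate 2, was thus well above the highest control liver. The log2 change of 2.05 (SE 0.31, adjusted p = 6.38e-05) equals 4.14-fold. Under Pema, Gbp2 was at 82.0, 160.1, 106 and 56.6 CPM with Ad-CTRL and at 171, 369, 424 and 346 CPM with Ad-FAT10. These groups did not overlap either, though Ad-CTRL replicate 2 and Ad-FAT10 replicate 1 came close to each other. The log2 change there was 1.70 (SE 0.31, adjusted p = 0.000313).

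Gbp5, known for promoting assembly of the NLRP3 inflammasome, was the least abundant member per length. It was at 23.2, 18.7, 18.7 and 12.8 CPM in Ad-CTRL CMC livers and at 59.6, 32.6, 62.9 and 48.8 CPM in Ad-FAT10 CMC livers. With Pema it stood at 24.1, 27.8, 25.8 and 18.5 CPM in Ad-CTRL and at 35.4, 41.7, 55.0 and 40.9 CPM in Ad-FAT10 livers. The viruses did not overlap in either treatment. Gbp5 rose by 1.48 (SE 0.20, adjusted p = 2.61e-05) on the log2 scale under CMC and by 0.85 (SE 0.20, adjusted p = 0.0025) under Pema.

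The other guanylate binding proteins rose as well. Gbp3 went from 60.4 ± 14.1 to 161 ± 42.7 CPM under CMC (log2 change 1.42) and from 68.4 ± 28.0 to 188 ± 48.6 CPM under Pema (1.46). Gbp7, which has been linked to assembly of the phagocyte oxidase, went from 67.1 ± 10.8 to 162 ± 40.5 CPM (1.27) and from 79.9 ± 34.7 to 164 ± 33.9 CPM (1.04), and the Pema groups overlapped. For Gbp6 the means were 33.3 ± 11.2 and 76.9 ± 20.9 CPM under CMC (1.21) and 39.7 ± 13.9 and 76.8 ± 3.82 CPM under Pema (0.95, all SD, n = 4). Gbp6 was the only member whose CMC groups overlapped, because Ad-CTRL replicate 1 (49.3 CPM) lay above Ad-FAT10 replicate 2 (47.9 CPM). Adjusted p for these 3 genes ran from 0.000344 to 0.00424. Gbp6 has a close copy, Gbp10, and reads shared by the copies cannot be assigned with certainty.

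Of the 3 regulators, Igtp and Irgm1 rose in both treatments, and Irgm2, with the smallest change, was called under CMC and not under Pema (interaction adjusted p = 0.626). Igtp was at 367, 295, 310.1 and 262 CPM in Ad-CTRL CMC livers and at 593, 446, 872 and 905 CPM in Ad-FAT10 CMC livers. Under Pema its values were 309, 699.8, 498 and 258 CPM with Ad-CTRL and 749.6, 1118, 827 and 1041 CPM with Ad-FAT10. No liver of either treatment crossed between the viruses, although Ad-CTRL Pema replicate 2 came within the Ad-FAT10 CMC range. Its log2 changes were 1.19 (SE 0.27, adjusted p = 0.00187) and 1.08 (SE 0.27, adjusted p = 0.0036). Irgm1 went from 277 ± 57.4 to 547 ± 93.8 CPM under CMC (0.98) and from 299 ± 123 to 514 ± 72.6 CPM under Pema (0.78), with an overlap in the latter. Its adjusted p was 0.00218 and 0.00983.

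Irgm2 was at 319, 346, 344 and 282 CPM in Ad-CTRL CMC livers and at 449, 367, 422 and 425 CPM in Ad-FAT10 CMC livers. The groups were next to each other without overlap, and the log2 change was 0.36 (SE 0.14, adjusted p = 0.0387). Under Pema it was at 265, 428, 407 and 295 CPM with Ad-CTRL and at 354, 376, 337 and 407 CPM with Ad-FAT10, so the Ad-FAT10 livers lay inside the control range. The change of 0.08 (95% interval -0.21 to 0.36, adjusted p = 0.672) was not called. The CMC call of Irgm2 was lost in 7 of 24 alternatives, which were scaling by DESeq2-type size factors in edgeR (0.34, adjusted p = 0.0514) and leaving out replicate 1, 3 or 4 of Ad-CTRL CMC or of Ad-FAT10 CMC (0.30 to 0.40 over the left-out libraries). Its adjusted p ran from 0.000361 to 0.108 over the 24.

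Iigp1 and Tgtp2 are effectors that coat parasite vacuoles. Iigp1, the most abundant member, was at 2076, 1399, 1521 and 1169 CPM in Ad-CTRL CMC livers and at 3850.0, 2728, 3681 and 3294 CPM in Ad-FAT10 CMC livers. The lowest Ad-FAT10 liver again exceeded the highest control, and the log2 change was 1.14 (SE 0.24, adjusted p = 0.00113). Under Pema the values were 1433, 2918, 1686 and 1149 CPM with Ad-CTRL and 2895, 3517, 2744 and 3888 CPM with Ad-FAT10. The groups overlapped through Ad-CTRL replicate 2, and the change was 0.86 (SE 0.24, adjusted p = 0.0077).

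Tgtp2 and Gbp2 had the largest changes of the 10 in both treatments. Tgtp2 was at 21.9, 20.7, 23.7 and 14.7 CPM in Ad-CTRL CMC livers and at 79.5, 52.2, 128 and 84.2 CPM in Ad-FAT10 CMC livers, and the groups were far apart. With Pema it was at 26.5, 28.5, 22.9 and 16.6 CPM with Ad-CTRL and at 47.9, 99.7, 82.0 and 80.5 CPM with Ad-FAT10, again without overlap. The log2 changes were 2.09 (SE 0.25, adjusted p = 8.41e-06), or 4.25-fold, and 1.72 (SE 0.25, adjusted p = 5.15e-05), or 3.29-fold. Tgtp1, its near-identical neighbour on chromosome 11, was at 124 ± 29.1 and 425 ± 84.4 CPM under CMC (1.78), and how reads were split between the copies is uncertain. With the counts of the copies summed, 10 members were called under CMC and 9 under Pema, as with each gene on its own, and the change of Tgtp2 was 1.83 and 1.62, below that of Gbp2 (2.05 and 1.70).

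The joined GAS and ISRE letters were thus present in Tgtp2, 1 of the 2 members with the largest log2 changes, and in Irgm2, the member with the smallest. Gbp2, the other of the 2, held no GAS match in its window and had the largest change once the copies of Tgtp2 were summed. Igtp and Irgm2, whose windows are 90.2% identical, had CMC log2 changes of 1.19 (95% interval 0.63 to 1.75) and 0.36 (0.08 to 0.65), and the difference between these genes was not tested. Gm12185, the other gene with the joined letters besides Tgtp1, had changes of 2.14 and 1.71.

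Under each of 24 alternatives the number of members called higher with Ad-FAT10 was 9 or 10 in either treatment. Scaling by library totals alone moved the median of all genes to 0.28 under CMC and 0.34 under Pema and the member medians to 1.55 and 1.37. With that scaling, 6365 genes were called higher and 1061 lower under CMC, against 3316 and 2977 with TMM, and Irgm2 was called under Pema as well (0.45, adjusted p = 0.00626, range over alternatives 0.00626 to 0.985).

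**Figure D2:**
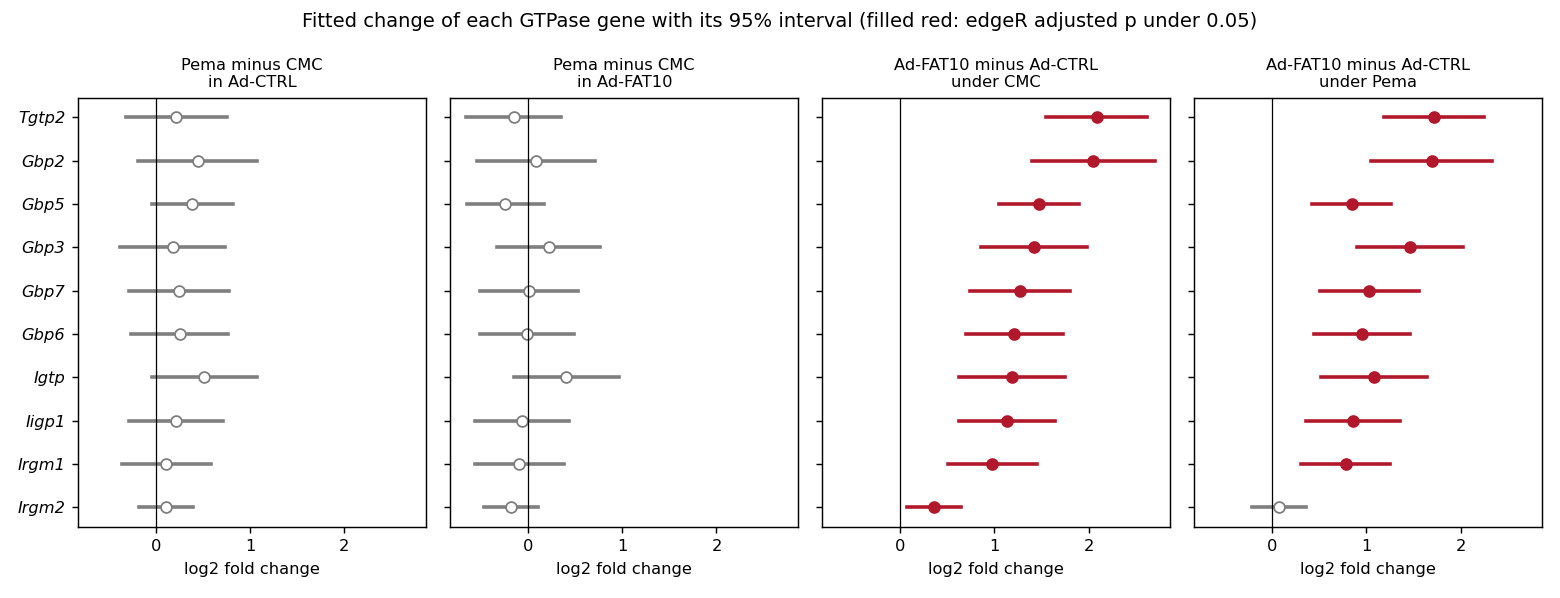
Fitted log2 change of each GTPase gene in 4 comparisons, ordered by the change under CMC, with 95% intervals; filled red points are called by edgeR at an adjusted p under 0.05 and open grey points are not. All 10 intervals in the Ad-FAT10 under CMC panel lie above 0, as do 9 in the Ad-FAT10 under Pema panel, while all 20 intervals in the drug panels include 0.

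Pemafibrate changed no member detectably in either virus. In Ad-CTRL livers 0 of 10 were called by edgeR or by DESeq2, and 0 had an unadjusted p under 0.05, where 16.2% of all genes were called higher and 14.4% lower. The 10 log2 changes ran from 0.11 (Irgm2) to 0.52 (Igtp), with a median of 0.24. In Ad-FAT10 livers 0 of 10 were called by either tool, and 0 had an unadjusted p under 0.05, where 12.9% of all genes were called higher and 12.5% lower. The 10 changes there ran from -0.24 (Gbp5) to 0.41 (Igtp), with a median of -0.03. No member had groups without overlap in either virus, where 16.1% of all genes lay higher and 14.6% lower without overlap in Ad-CTRL livers, and 13.1% and 12.3% in Ad-FAT10 livers. Ubd was called higher with the drug in Ad-CTRL livers (1.30, adjusted p = 0.00945), a call lost without Ad-CTRL Pema replicate 2 (0.89, adjusted p = 0.0524, range over alternatives 1.23e-05 to 0.0524). It was also called in Ad-FAT10 livers (0.96, adjusted p = 0.0413), a call lost in 10 of 24 alternatives (range 0.00049 to 0.12).

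The intervals show what sizes these data leave possible. For Igtp, the member with the largest drug difference in both viruses, the log2 change was 0.52 (95% interval -0.04 to 1.08, adjusted p = 0.157) in Ad-CTRL and 0.41 (-0.15 to 0.96, adjusted p = 0.296) in Ad-FAT10 livers. For Gbp5 it was 0.39 (-0.04 to 0.82) in Ad-CTRL and -0.24 (-0.65 to 0.17) in Ad-FAT10 livers. Irgm2 had the narrowest intervals, 0.11 (-0.17 to 0.40) and -0.17 (-0.46 to 0.11).

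The size of the drug difference in Ad-CTRL livers depended on single libraries. Ad-CTRL Pema replicate 2 had the highest value of its group for 10 of 10 members, for example 2918 CPM of Iigp1 where the other livers of the group had 1149 to 1686. Without it the member median, 0.24 over all libraries, was 0.01 (range -0.17 to 0.31). It was 0.12 without Ad-CTRL CMC replicate 4, 0.37 without Ad-CTRL CMC replicate 1 and 0.40 without Ad-CTRL Pema replicate 4, which was the lowest of its group for 9 members. In each case 0 members were called. In Ad-CTRL Pema replicate 2 the summed level of T and NK cell markers was 32.2 CPM, level with replicate 1 (32.2 CPM). Replicates 3 (26.6 CPM) and 4 (21.0 CPM) were lower. The members averaged -0.19 from the group mean on the log2 scale in replicate 1 and 0.60 in replicate 2. In replicate 2 the sums of monocyte and macrophage (165 CPM), resident macrophage (185 CPM), dendritic cell, endothelial and stellate markers were the lowest of the group. Its hepatocyte and neutrophil sums and its Ubd, 47.8 CPM, were the highest. The part of these cells in the drug difference was not tested.

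Neither did the drug response of any member differ detectably between the viruses. In the interaction, the drug response in Ad-FAT10 livers minus that in Ad-CTRL livers, 0 of 10 members were called by edgeR or by DESeq2, where 0.0271% of all genes were called higher and 0.129% lower. The median was -0.27, and 1 member, Gbp5, had an unadjusted p under 0.05 (log2 difference -0.63, 95% interval -1.22 to -0.04, edgeR adjusted p = 0.435). Without Ad-CTRL Pema replicate 2 the median of the 10 was 0.02 and 0 members were called.

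The members varied together from liver to liver within groups. After each gene's group mean was subtracted on the log2 scale, the deviations of a member and of the mean of the other 9 had a Pearson r between 0.67 (Irgm2) and 0.98 (Gbp7) over the 16 livers. The 45 pairs had r from 0.40 (Irgm2 with Tgtp2) to 0.98 (Gbp2 with Gbp3), with a median of 0.79. These are descriptions without a test, since the points of a pair share a library and its scaling. Deviations spanned -0.86 to 0.79 on the log2 scale.

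**Figure D3:**
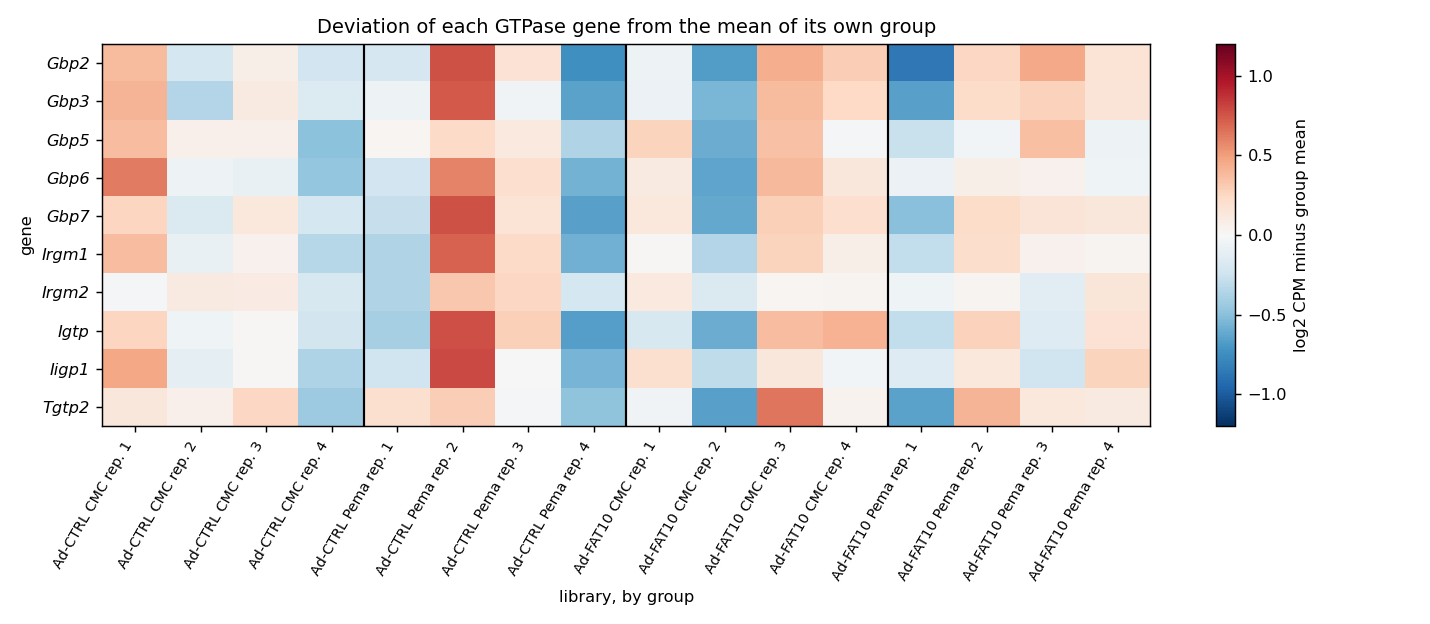
Deviation of each GTPase gene (rows) from the mean of its own group in each of the 16 livers (columns), in log2 CPM; black lines separate the groups and the colour bar gives the scale. Columns are mostly of 1 colour: Ad-CTRL Pema replicate 2 is high for all 10 genes and Ad-FAT10 CMC replicate 2 is low for all 10.

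Within the Ad-FAT10 CMC group, replicate 2 had the lowest value for 10 of 10 members and replicate 3 the highest for 7. The low liver had 120.3 CPM of summed neutrophil markers, against 40.2 to 75.3 CPM in the other 3 of its group. It had 57.5 CPM of summed T and NK cell markers, against 71.2 to 79.0 CPM. Its hepatocyte sum was the highest of the group, and its dendritic cell (25.7 CPM) and endothelial (143 CPM) sums were the lowest. Among Ad-FAT10 Pema livers, replicate 1 was lowest for 8 members, while its Ubd of 546 CPM was the highest of that group. Its T and NK cell markers were at 45.8 CPM against 64.4 to 104.2 CPM. Also the lowest of the group were its sums for dendritic cells (18.8 CPM), monocytes and macrophages (289 CPM) and resident macrophages (171 CPM). The same held for its B cell, stellate and hepatocyte sums, while its neutrophil sum (24.8 CPM) was the highest. Replicate 3, with the highest T and NK cell sum (104.2 CPM), was highest for 3 members and lowest for 2. In Ad-CTRL CMC livers replicate 1 was highest for 8 members and replicate 4 lowest for 9. Their T and NK cell markers were the highest (43.7 CPM) and the lowest (20.2 CPM) of the group. In replicate 1 the neutrophil (19.9 CPM), dendritic cell (18.0 CPM) and B cell (28.0 CPM) sums were also the highest. Its hepatocyte, endothelial, stellate and resident macrophage sums were the lowest, and replicate 4 had the highest hepatocyte sum. The part of these cells in the differences between livers was not tested.

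Outside the 10, the genes whose deviations were most like the mean deviation of the members were Gm12250 (r = 0.96), the chemokine gene Cxcl9 (0.95), the nucleic acid sensor gene Zbp1 (0.94), Usp18 (0.93), Gbp10 (0.93), Tgtp1 (0.91), Wars (0.91) and Samhd1 (0.91). They head 11345 genes ranked over 16 livers, of which 10 had r above 0.9 and whose median r was -0.01. Gm12250, Gbp10 and Tgtp1 belong to the same GTPase families. Ubd had r = 0.67. Among genes of the interferon-gamma pathway r ran from -0.02 (Ifngr2) to 0.86 (Socs1). Irf8 had r = 0.80, Irf1 had 0.76 and Ifngr1 had 0.02. The ligand gene Ifng, with few counts, had r = 0.81.

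The genes around the members were examined by lists. Ifng, the ligand, was scarce, with 2 to 25 counts per liver. It was at 0.469, 0.416, 0.231 and 0.103 CPM in Ad-CTRL CMC livers and at 0.413, 0.191, 0.65 and 0.515 CPM in Ad-FAT10 CMC livers, so the groups overlapped. Its log2 changes with Ad-FAT10, 0.56 (95% interval -0.37 to 1.48) under CMC and 0.89 (-0.01 to 1.79) under Pema, were not called. Of the 12 genes of the interferon-gamma pathway from ligand to inhibitors, 8 were called higher and 0 lower under CMC (list median 0.51) and 5 higher and 0 lower under Pema (0.33).

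Ifngr1, the ligand-binding receptor chain, was at 18.5 to 21.8 CPM in Ad-CTRL CMC and 29.3 to 31.1 CPM in Ad-FAT10 CMC livers. It rose there by 0.56 on the log2 scale (adjusted p = 0.000412) and by 0.62 under Pema. Irf8, a transcription factor of the same family as Irf1, rose by 1.27 and 1.07. Socs1, which blocks the JAK kinases and is itself a target of the pathway, rose most, from 5.73 ± 1.40 to 22.6 ± 7.70 CPM (1.99, adjusted p = 3.87e-05) and by 1.54 under Pema. Irf1 rose by 0.76 under CMC and was not called under Pema (0.40, adjusted p = 0.0723), where it was called in 7 of 24 alternatives. Jak1 had small changes, 0.24 and 0.23 with Ad-FAT10 and -0.25 and -0.27 with pemafibrate, and each of those 4 calls was lost in 6 to 13 of 24 alternatives. Irf9, Ifngr2 and Pias1 were not called with Ad-FAT10 in either treatment. With pemafibrate Pias1 was called lower in Ad-FAT10 livers (-0.35, adjusted p = 0.0129), a call lost in 1 of 24 alternatives. In Ad-CTRL livers it was not called (-0.04, adjusted p = 0.792).

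Upstream of the ligand, of 10 tested genes for the cytokines, receptors and factors that drive interferon-gamma production, 6 were higher and 0 lower with Ad-FAT10 under CMC and 8 higher and 0 lower under Pema. With pemafibrate 3 of the 10 were lower given Ad-CTRL and 2 given Ad-FAT10, with 0 higher. Il15, a survival cytokine of NK cells, fell by 1.50 (adjusted p = 8.6e-05) in Ad-CTRL and by 1.02 (adjusted p = 0.00133) in Ad-FAT10 livers on the log2 scale, and Il18 by 0.85 and 0.59. The third gene lower with Ad-CTRL was Il12rb1, a receptor gene (-0.98). Of all genes, 14.4% and 12.5% were lower with the drug in these livers.

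Other genes of the 2 families were also higher, in a list that also holds Gvin1, a GTPase gene outside them. Of 14 tested, 11, Gvin1 among them, were higher and 0 lower with Ad-FAT10 in both treatments, with medians of 1.04 and 1.03. Gm4841 had the largest rise (2.67 under CMC and 2.19 under Pema), and Gbp9 rose by 1.82 and 1.38. Gm4951, Gbp11 and Irgq were not called in either treatment. With pemafibrate 1 of the 14 was called higher and 1 lower in Ad-CTRL livers, and 1 higher and 3 lower in Ad-FAT10 livers. Of all genes, 16.2% were called higher and 14.4% lower in Ad-CTRL livers, and 12.9% and 12.5% in Ad-FAT10 livers. Gbp11 was at 119.8, 109, 97.1 and 71.6 CPM in Ad-CTRL CMC and 41.2, 86.2, 51.6 and 29.1 CPM in Ad-CTRL Pema livers, with an overlap. In the Ad-FAT10 groups it was at 132, 117, 154 and 71.8 CPM under CMC and at 54.3, 51.3, 47.4 and 41.8 CPM under Pema, without overlap. It fell by 0.94 (adjusted p = 0.0112) and by 1.28 (adjusted p = 0.00147) on the log2 scale. Gbp9 fell by 0.87 and Gbp8 by 0.62 in Ad-FAT10 livers, and Irgq rose by 0.54 with Ad-CTRL and by 0.47 with Ad-FAT10. Irgc1, with 0 to 3 counts per liver, was not tested.

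**Figure D4:**
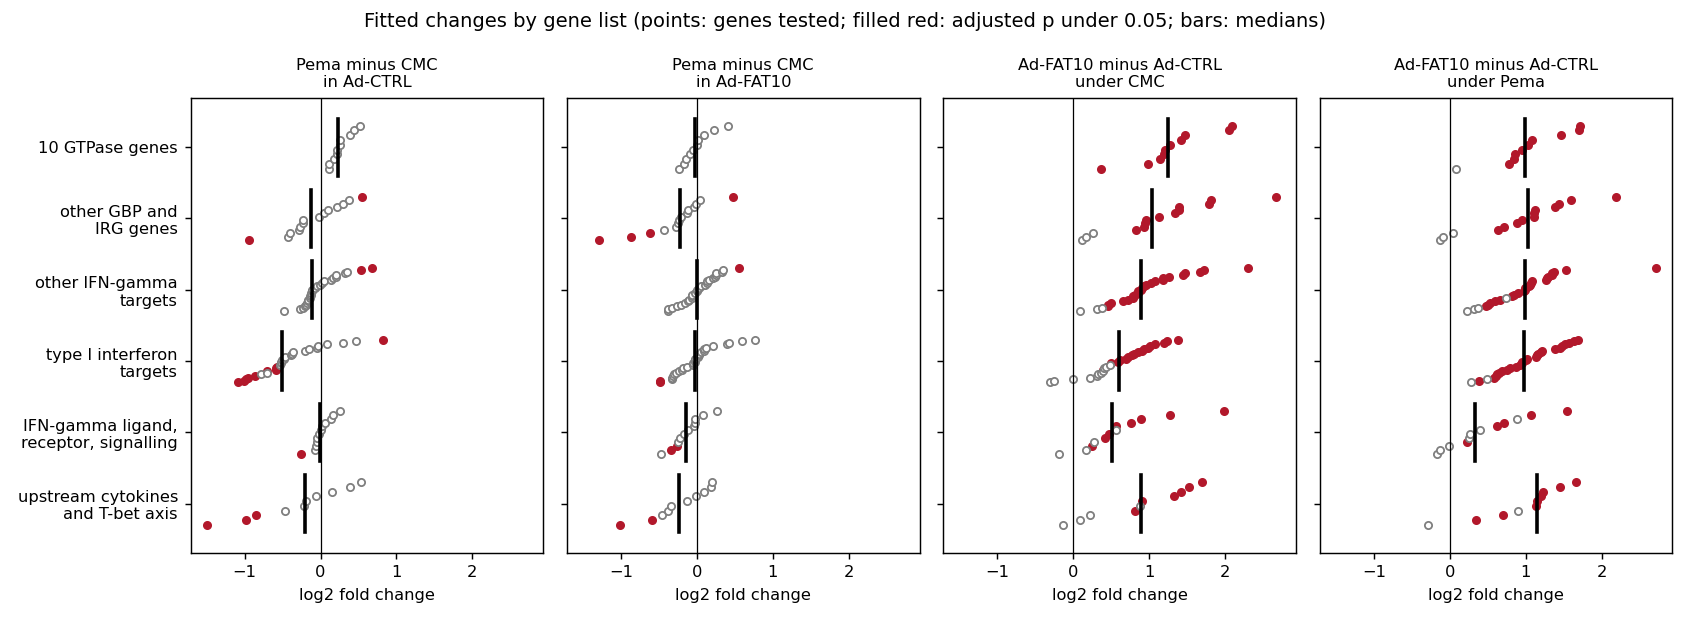
Fitted log2 changes of the genes tested in 6 lists (rows) and 4 comparisons (panels); each point is a gene, filled red where edgeR's adjusted p is under 0.05, and black bars are list medians. The 10 GTPase genes have a median of 1.24 in the Ad-FAT10 under CMC panel, and the type I interferon targets have a median of -0.51 in the panel of pemafibrate in Ad-CTRL livers, where that of the 10 is 0.24.

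Other targets of interferon-gamma, among them antigen presentation genes and chemokines, were higher in 24 of 27 tested genes under CMC (median 0.89) and in 23 under Pema (0.99), with 0 lower. Nos2, the inducible nitric oxide synthase, rose by 2.30 and 2.72, and Ciita, the activator of MHC class II genes, by 1.71 and 1.53. Type I interferon targets were higher in 17 of 28 genes under CMC (median 0.60) and in 26 under Pema (0.98), with 0 lower. With pemafibrate in Ad-CTRL livers 9 of these 28 genes were lower and 1 higher (median -0.51), for example Ddx58 (-0.98), Ifih1 (-0.70) and Stat2 (-0.57), while no member was called. In Ad-FAT10 livers 2 of the 28 were lower and 0 higher.

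Markers of T and NK cells, monocytes and neutrophils were higher with Ad-FAT10, as the members were, on the TMM scale used throughout, while those of other cell types were mixed or lower. T and NK cell markers were higher in 11 of 14 genes under CMC and in 12 under Pema, with 0 lower in both. With CMC their summed level ran from 20.2 to 43.7 CPM in the control livers and from 57.5 to 79.0 CPM with Ad-FAT10. With Pema it ran from 21.0 to 32.2 CPM and from 45.8 to 104.2 CPM. Monocyte and macrophage markers were higher in 8 of 9 genes in both treatments, with sums of 174 to 243 CPM against 398 to 519 CPM under CMC and 165 to 259 CPM against 289 to 479.9 CPM under Pema. Neutrophil markers were higher in 6 of 6 tested genes under CMC and 5 under Pema, with sums of 9.33 to 19.9 CPM against 40.2 to 120.3 CPM and 7.38 to 10.6 CPM against 17.7 to 24.8 CPM. Markers of resident macrophages were lower in 4 of 6 genes under CMC and 5 under Pema, with Cd5l higher in both (0.77 and 0.75), and their sums overlapped, at 259 to 379 CPM against 242 to 355 CPM under CMC and 185 to 342 CPM against 171 to 355 CPM under Pema. Dendritic cell markers were higher in 1 and lower in 1 of 7 genes under CMC, and higher in 3 and lower in 1 under Pema. Stellate cell markers were lower in 3 of 8 under CMC, and higher in 3 and lower in 2 under Pema. Hepatocyte markers were lower in 6 of 9 and 8 of 9. Endothelial markers were lower in 5 of 8 in both, and B cell markers in 4 of 7 under CMC and 3 under Pema. Of all genes, 22.5% were called higher and 20.2% lower under CMC, and 21.2% and 20.5% under Pema. No marker of these lists was at 0 in all livers. The part of these cell types in the rise of the 10 genes was not tested.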

How the data were processed

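Poly(A) RNA of 16 livers was sequenced from strand-marked libraries on a DNBSEQ platform, per the labels' protocols. The authors deposited 1 file of raw read counts per gene for each liver. The submitters' processing notes name the build GRCm39, the aligner STAR (2.7.6) and DESeq2 (1.36.0 and 2.11.40.6). No source used here names the read counter or its strand setting. Groups and replicate numbers came from the sample titles. Ensembl identifiers were given symbols from a GENCODE M21 table (GRCm38), which matched 52083 of 55416 (94.0%), and identifiers without a symbol held 0.099% of counts.

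The counts were tested with edgeR 4.0.16 in R 4.3.3. Genes passing filterByExpr (14770) were scaled by TMM and fitted with 1 mean per group over the 16 livers, which left 12 residual degrees of freedom. The quasi-likelihood test was applied to 5 comparisons, with Benjamini-Hochberg adjustment over all genes tested. Genes were called at an adjusted p under 0.05. The model was also tested on simulated data. A level of 3 counts equals 0.104 to 0.161 CPM of the library totals before TMM scaling, which covers counting error only. Deviations used log2 CPM with a prior count of 2, and genes were ranked for likeness by Pearson r at a mean log2 CPM of at least 1, the first 8 being named. The members and lists were chosen with earlier results of these data known. Named genes are the 10 members, Ubd, the 8 most alike, and all genes of the interferon-gamma pathway and of the 2 families, and in each other list up to 4 called genes of smallest p per comparison. The result of 1 gene of these lists is not reported here. Gm12185 and Cd5l were named after their values were seen. Alternatives were other scalings, no filter, only the groups compared, close copies summed, DESeq2 1.42.0, a replicate block and leaving out each library in turn.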

Additional observations from a re-analysis of the deposited data

Results flagged for a closer look

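In 2 of 92 groups of 4 values checked, a single liver stood far from the other 3, where chance gives about 1 in 20 groups. Gbp7 was at 113 CPM in Ad-FAT10 Pema replicate 1, and the gap to the nearest liver was 0.857 of the whole range of the group. Ptpn2, a phosphatase that acts on JAK kinases, was at 17.2 CPM in Ad-CTRL CMC replicate 1, with a gap of 0.893 of the range. The first of these livers was the lowest of its group for 8 of the 10 GTPase genes and the second the highest for 8.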

How the results depend on the processing

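The numbers of members called were within 1.5 times of those given in all 24 alternatives of the 4 comparisons between groups and 23 of the interaction. Leaving out 1 library gave member medians of 1.14 to 1.41 (Ad-FAT10 under CMC), 0.82 to 1.27 (under Pema), 0.01 to 0.40 (pemafibrate in Ad-CTRL), -0.15 to 0.11 (in Ad-FAT10) and -0.42 to 0.02 (interaction). With a replicate block the counts were 10, 9, 0, 0 and 0 in that order, with medians of 1.26, 1.02, 0.22, -0.03 and -0.26. Over 2000 genes, same-numbered livers showed little joint deviation (r from -0.14 to 0.22 over 24 pairs, median 0.01, against a median of -0.01 for other pairs). The titles do not say whether the numbers stand for a pairing, and this check cannot settle it.

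Single values changed sign as follows, and the cause was not tested. Under pemafibrate in Ad-CTRL, Gbp6 was at -0.076 with close copies summed. Under pemafibrate in Ad-FAT10, Gbp6 was at 0.012 without a filter and 0.026 with only the 2 groups fitted, and Gbp7 at -0.019 (upper quartile), -0.0056 (library totals) and -0.0073 (replicate block). With Ad-FAT10 under Pema, Ifngr2 was at 0.022 (upper quartile), 0.35 (totals), 0.018 (no filter) and 0.0050 (2 groups), Irf9 at 0.19 and Pias1 at 0.24 (totals); under CMC Irf9 was at 0.10 (totals). Leaving out 1 library gave these log2 ranges for pemafibrate in Ad-CTRL: Gbp3 -0.13 to 0.36, Gbp7 -0.064 to 0.44, Irgm1 -0.17 to 0.28, Irgm2 -0.0013 to 0.22, Iigp1 -0.12 to 0.40 and Pias1 -0.085 to 0.037. For pemafibrate in Ad-FAT10 they were -0.065 to 0.31 (Gbp2), -0.16 to 0.13 (Gbp6), -0.14 to 0.15 (Gbp7), -0.18 to 0.0047 (Irgm1), -0.15 to 0.019 (Iigp1) and -0.31 to 0.11 (Tgtp2). For the interaction they were -0.14 to 0.35 (Gbp3), -0.42 to 0.077 (Gbp7), -0.37 to 0.081 (Irgm1), -0.30 to 0.20 (Igtp) and -0.45 to 0.060 (Iigp1). With Ad-FAT10 under Pema they were -0.034 to 0.19 (Irgm2) and -0.080 to 0.068 (Ifngr2).

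Some counts of the other lists and of all genes differed by over 1.5 times. Type I targets lower with pemafibrate in Ad-CTRL went from 9 to 14 (upper quartile) and 17 (no filter), and pathway genes higher with Ad-FAT10 under Pema from 5 to 8 (upper quartile) and 11 (totals). Over all genes, interaction calls went from 4 higher and 19 lower to 28 and 65 without a filter, 36 and 82 with DESeq2, 0 and 16 with the replicate block, and 0 to 9 and 10 to 32 when 1 library was left out. Small counts of reads limit Ifng, whose intervals span more than 1 log2 unit.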

Other observations

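Partners of the GTPases, among 21 genes for the autophagy conjugation machinery that places them on membranes and for the inflammasomes they act on, changed with Ad-FAT10 in both directions. Under CMC 8 were higher and 7 lower, and under Pema 6 were higher and 10 lower. All genes were split in both directions too, with 22.5% called higher and 20.2% lower under CMC and 21.2% and 20.5% under Pema. Scaling by library totals changed the split to 13 higher and 3 lower under CMC and 10 higher and 3 lower under Pema, so each direction here is relative to the TMM scaling.

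Genes of the autophagy conjugation machinery were among those lower. Atg3, the enzyme that attaches LC3 to lipid, fell from 107 ± 9.06 to 65.8 ± 2.81 CPM (SD, n = 4) under CMC, a log2 change of -0.70 (edgeR adjusted p = 2.67e-05), and changed by -0.64 under Pema. Map1lc3a, a gene of LC3, changed by -0.63 and -0.81. With pemafibrate Map1lc3a rose by 0.72 (edgeR adjusted p = 2.01e-05) in Ad-CTRL and by 0.53 in Ad-FAT10 livers.

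Inflammasome genes were among those higher. Nlrp3, the sensor with which GBP5 is linked, rose by 1.59 (edgeR adjusted p = 5.95e-06) under CMC and 1.21 under Pema. Pycard, the adaptor ASC, rose by 1.10 and 1.87, and Gsdmd, the pore-forming protein cleaved downstream, went from 47.6 ± 4.59 to 78.6 ± 4.77 CPM (SD, n = 4) under CMC and rose by 0.73 and 0.96 on the log2 scale. These genes are also expressed in the monocytes and neutrophils whose markers were higher with Ad-FAT10, and the part of those cells was not tested.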
